A study of Mus musculus with 44 samples.

Results

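The baseline small RNA profile of the lean mouse hypothalamus was described from 8 libraries of C57Bl/6J mice on regular chow diet (RCD), all of batch 4 and numbered RCD 1 to RCD 8. They were chosen by their labels alone, as 8 of the 44 libraries of the series, and the description uses both deposited tables, one of mature miRNAs and one of tRNA fragments (tRFs). The rest of the series holds 4 more RCD libraries, in batch 2, and 32 libraries of mice made obese by 11 weeks of high fat diet and injected with a locked nucleic acid oligonucleotide, AM132 (complementary to miR-132, 16 libraries) or AM608 (complementary to the primate miR-608, a control, 16 libraries). None of these enters the values below unless named. The RCD mice were age-matched to the obese mice, and the labels give neither their age or sex nor any injection. Hypothalamus tissue was snap frozen whole as collected, so no cell type was selected. Batch 4 holds RCD libraries only, so what is particular to these mice and what is particular to the batch cannot be told apart. The labels number the samples as separate controls and do not say whether any animals were pooled, so p-values measure only the spread between these samples.

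miRNAs are short guide RNAs cut from hairpin precursors. Each hairpin can give a 5p and a 3p arm, one of which is usually kept as the guide by an Argonaute protein, and the seed near the guide's 5' end sets most of its targets. tRFs are pieces of transfer RNAs, cut in the anticodon loop (5'-half and 3'-half), holding another stretch from the 5' or the 3' end (5'-tRFs and 3'-tRFs) or lying inside the molecule (i-tRFs). The hypothalamus governs feeding, temperature and hormone release, and its tissue holds neurons, glia and vessels and lies against the third ventricle with its choroid plexus.

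The sequences below carry the main findings. Mature miRNAs are given as in RefSeq (GRCm38.p6), with the seed, bases 2 to 8, in capitals. The first set holds the let-7 guides among the leading miRNAs, which share a seed and make up the largest seed family.
let-7f-5p: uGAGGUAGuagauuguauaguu
let-7g-5p: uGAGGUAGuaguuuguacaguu
let-7i-5p: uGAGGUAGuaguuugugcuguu
let-7a-5p: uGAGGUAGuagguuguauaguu
let-7c-5p: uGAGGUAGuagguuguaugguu

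The next set holds the other leading guides, each with a seed of its own, and both arms of the miR-9 hairpin.
miR-128-3p: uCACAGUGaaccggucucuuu
miR-9-5p: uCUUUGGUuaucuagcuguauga
miR-9-3p: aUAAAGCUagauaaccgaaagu
miR-26a-5p: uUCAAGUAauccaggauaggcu
miR-99a-5p: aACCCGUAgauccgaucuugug
miR-125b-5p: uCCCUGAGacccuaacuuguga
miR-7a-5p: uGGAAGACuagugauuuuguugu
miR-218-5p: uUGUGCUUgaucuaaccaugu
miR-29a-3p: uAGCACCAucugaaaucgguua
miR-126a-3p: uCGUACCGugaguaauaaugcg

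A further set holds the arms of the hairpin nearest to equal use and the miRNAs that set single libraries apart.
miR-434-5p: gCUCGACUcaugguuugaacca
miR-434-3p: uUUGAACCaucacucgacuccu
miR-204-5p: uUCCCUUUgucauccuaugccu
miR-1298-5p: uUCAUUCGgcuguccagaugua
miR-195a-5p: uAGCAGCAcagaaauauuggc
miR-497a-5p: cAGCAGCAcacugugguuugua
miR-206-3p: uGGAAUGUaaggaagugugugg

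The tRFs are given as in the deposited table, in DNA letters, with the anticodon in capitals where the fragment holds it whole. They were chosen from the leading fragments, and each name begins with the length in nt.
tRF-50-PSQP4PW3FJIKE7UMKKSW (LysCTT, positions 1 to 50): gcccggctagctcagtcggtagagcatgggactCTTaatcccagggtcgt
tRF-50-PSQP4PW3FJI0E7UM8KSW (LysCTT, positions 1 to 50): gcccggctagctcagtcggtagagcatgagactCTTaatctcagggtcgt
tRF-35-PSQP4PW3FJI0E7 (LysCTT, positions 1 to 35): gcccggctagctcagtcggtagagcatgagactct
tRF-50-PNR8YP9LON4VN1EH6KK8 (GlyGCC, positions 1 to 50): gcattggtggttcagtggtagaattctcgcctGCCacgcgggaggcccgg
tRF-18-8R6Q46D2 (AlaCGC and AlaTGC, positions 58 to 75): tccccggcatctccacca
tRF-17-I958M8N (LeuTAG, positions 47 to 63): atttcgatggcgtgggt

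The libraries held 3618469 to 5519566 miRNA counts (median 4930378) and 38619 to 113248 tRF counts (median 63378), or 0.940 to 2.36 tRF counts per 100 miRNA counts. Levels are therefore given as CPM (counts scaled to a total of 1000000 in the same table), or as percent of its counts, and cannot be compared between tables. No pair of libraries looked like a single library deposited again: RCD 1 and RCD 6, the most alike, differed with a chi-square of 16.2 for each degree of freedom over 572 miRNAs. The miRNA profiles were close to each other, with a Pearson correlation of log2(CPM + 1) across the 643 miRNAs of at least 1 CPM of 0.988 to 0.9965 over 28 pairs of libraries. The tRF profiles were less so, with 0.545 to 0.933 across 611 tRFs of at least 100 CPM, and RCD 7 had the lowest median correlation with the other 7 libraries, 0.583. miRNAs and fragments within a library are not independent replicates, and these correlations are descriptions. RCD 2 and RCD 5 stood apart in miRNAs of the choroid plexus, and RCD 7 in a few other miRNAs and in long lysine tRFs, as described below.

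A few miRNAs held most of the counts. Of 1978 mature miRNAs listed, 643 reached a mean of 1 CPM, 215 reached 100 CPM and 88 reached 1000 CPM, while 647 had 0 counts in all 8 libraries. The 8 most abundant made up 50% of counts and the 57 most abundant 90%. The leading 20 held 71.6% ± 1.00 (SD, n = 8), and 18 of them were among the leading 20 of every library.

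miR-128-3p, a neuronal miRNA that lowers excitability, came first with 141534 ± 14676 CPM (SD, n = 8), from 118725 in RCD 2 through a median of 143085 to 161881 in RCD 8. miR-9-5p, which acts in neural progenitors and neurons, followed with 127732 ± 4110 CPM, from 121336 in RCD 8 through a median of 127220 to 135185 in RCD 7. Together they took 26.9% ± 1.17 of miRNA counts. miR-128-3p was above miR-9-5p in 6 of 8 libraries, and the order was the other way round in RCD 2 and RCD 7, so their ranges overlap. The coefficient of variation (CV, the SD over libraries as a percent of the mean) was 10.4% for miR-128-3p and 3.22% for miR-9-5p, against a counting error of 0.123% and 0.130%.

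miR-26a-5p came next in every library, with 72833 ± 4900 CPM, a lowest value of 66712, a median of 71630 and a highest of 83398 in RCD 7. miR-99a-5p, of a family that targets the mTOR pathway, had 46544 ± 8890 CPM, and 3 libraries (RCD 4, RCD 5 and RCD 7) lay at 36359 to 37444 while the other 5 lay at 45708 to 58056. let-7f-5p, at 38945 ± 2422 CPM, was above miR-99a-5p in those 3 libraries and below it in the other 5.

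Below these the levels ran closely together. miR-125b-5p (26852 ± 1532 CPM), let-7g-5p (26084 ± 3129), miR-7a-5p (25900 ± 5099), miR-218-5p (25326 ± 4033), miR-29a-3p (23814 ± 1883) and let-7i-5p (22903 ± 1259) could not be put in order, since neighbours held the same order in 4 to 6 of 8 libraries. Among the 19 neighbouring pairs within the leading 20, 3 kept their order in all 8 libraries (miR-9-5p over miR-26a-5p, miR-26a-5p over miR-99a-5p, and let-7f-5p over miR-125b-5p), and 13 kept it in 4 to 6. The remaining members were let-7a-5p, let-7c-5p, miR-126a-3p, miR-30d-5p, miR-9-3p, miR-125a-5p, let-7d-5p, miR-328-3p and miR-30c-5p, from 18072 down to 12137 CPM. miR-126a-3p, the endothelial miRNA of this group, had 17088 ± 1191 CPM.

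miR-7a-5p, which is rich in neurosecretory cells of the hypothalamus and pituitary, ranged from 18367 CPM in RCD 7 and 20167 in RCD 4 through a median of 25862 to 31710 in RCD 3 and 32059 in RCD 1. Its rank accordingly ran from 6 to 14. miR-7b-5p, which shares its seed and comes from another locus, had 6396 ± 1158 CPM and was likewise lowest in RCD 7 (4843) and highest in RCD 3 (8158). miR-218-5p, a motor neuron and hindbrain miRNA also found in forebrain neurons, ran from 20243 CPM in RCD 7 through a median of 24960 to 32641 in RCD 2.

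**Figure D1:**
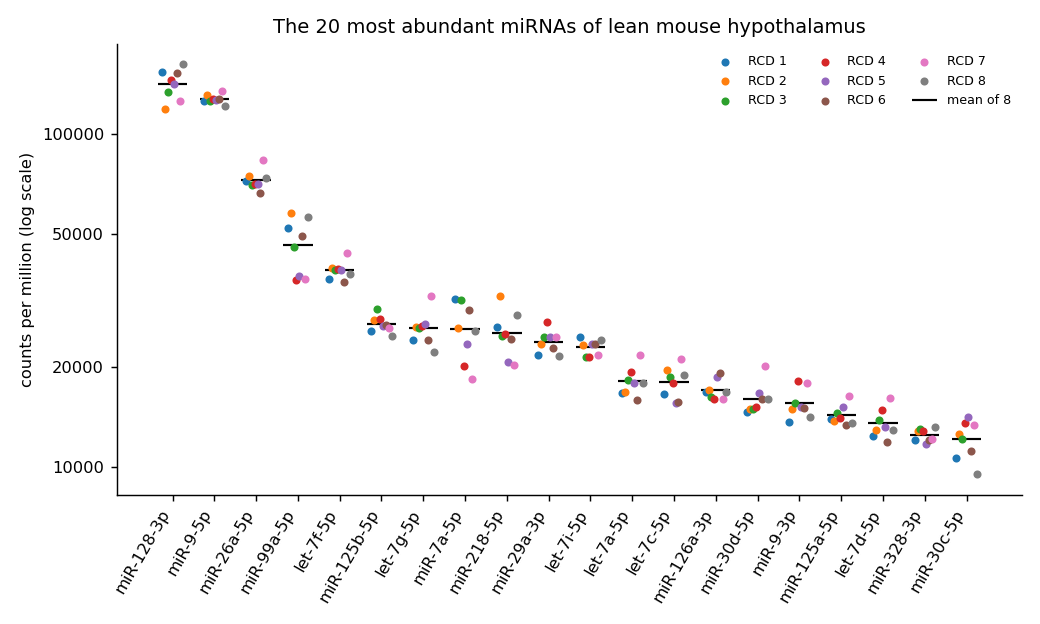
CPM (log axis) of the 20 most abundant miRNAs in each of the 8 RCD libraries of batch 4, 1 coloured point per library, with the mean as a black line. miR-128-3p and miR-9-5p overlap at the top, miR-26a-5p stands alone below them, and from miR-125b-5p on the points of neighbouring miRNAs overlap.

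miRNAs were grouped into seed families by bases 2 to 8 of the RefSeq sequence, which was at hand for 1679 of the 1978 miRNAs, 548 of the 643 of at least 1 CPM and 94.6% of counts. The 548 had 461 seeds, and 54 of these were shared by 2 or more of them. The 10 largest families held 69.8% of counts. miRNAs without a sequence are in no family, among them miR-30d-5p (16056 CPM) and miR-328-3p (12476 CPM) of the leading 20. The sum for the miR-30 seed GUAAACA, 26803 CPM and rank 8, therefore holds no miR-30d-5p, and the ranks of the families are those of miRNAs with a sequence.

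The let-7 seed GAGGUAG was the largest family, with 10 members and 145735 ± 9662 CPM, ranging from 134214 to 166689 with a median of 144716. Its counts were spread over many members: let-7f-5p, the largest, held 26.7% of them. The let-7 guides restrain growth and developmental timing genes in many tissues. The sum of the family was close to the level of the single miRNA with the seed CACAGUG, miR-128-3p, and its CV was 6.63%. Other families rested on 1 member. miR-26a-5p held 96.9% of the UCAAGUA family (75165 ± 5217 CPM) and miR-29a-3p 94.7% of the AGCACCA family (25154 ± 2004 CPM). The ACCCGUA family of miR-99a-5p, miR-100-5p and miR-99b-5p came to 56923 ± 8772 CPM, with 81.8% in miR-99a-5p, and the CCCUGAG family of miR-125b-5p, miR-125a-5p and miR-351-5p to 41221 ± 1870 CPM, with 65.1% in miR-125b-5p. The GGAAGAC family of miR-7 had the highest CV among the 10, 19.2%, and miR-9-5p the lowest, 3.22%.

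**Figure D2:**
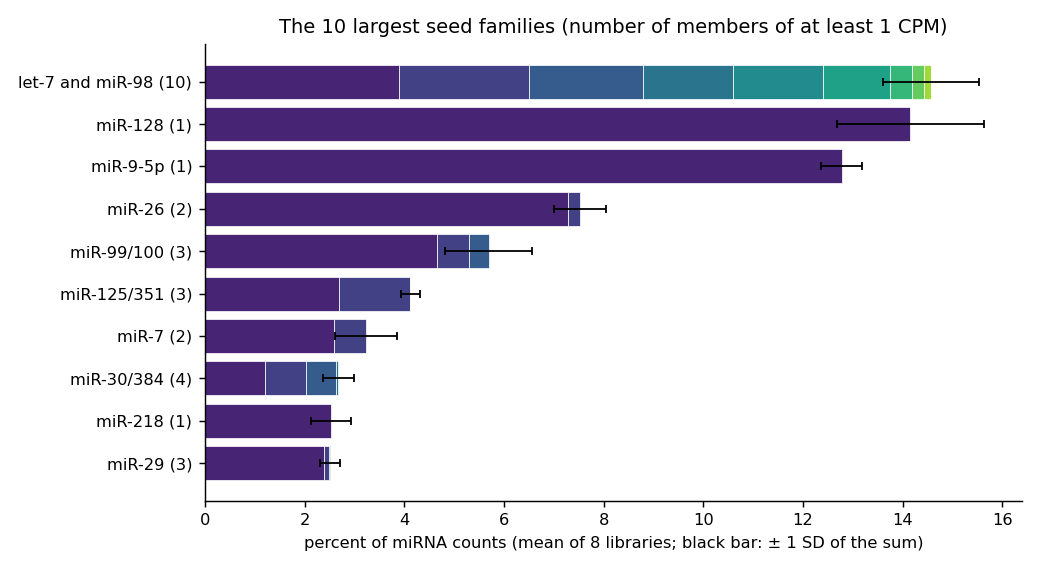
Share of miRNA counts (percent, mean of 8 libraries) of the 10 largest seed families, with 1 segment for each member of at least 1 CPM and the SD of the sum over libraries as a black bar. The let-7 family is split among 10 members, while miR-26, miR-29 and miR-99/100 are each mostly 1 miRNA.

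Most counts came from miRNAs that begin with U. Among miRNAs with a sequence, those beginning with U held 78.8% of counts, those beginning with A 16.14%, C 3.07% and G 1.97%. By number the share of U was much smaller: 227 of 548 miRNAs of at least 1 CPM (41.4%) and 460 of 1131 below it (40.7%) began with U. All of the leading guides printed above begin with U except miR-99a-5p and miR-9-3p, which begin with A.

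Lists of miRNAs known from cell types and tissues were summed in each library, and some miRNAs stand in more than 1 list. In bulk RNA, fewer cells of a type and less RNA per cell cannot be told apart. The lists also differ in length, and members such as miR-9-5p, which acts in progenitors too, are not confined to 1 cell type. A sum is therefore not a share of cells. The neuronal list (20 miRNAs, all detected) summed to 40.3% ± 1.25 of counts, from 385054 CPM in RCD 7 to 416071 in RCD 6, led by miR-128-3p and miR-9-5p. The list of energy balance and neuropeptide circuits (17 of 18 detected) summed to 33808 ± 4923 CPM and was led by miR-7a-5p and by miR-103-3p (2586 ± 274 CPM), a regulator of insulin sensitivity. Most of that sum is miR-7a-5p, with a mean of 25900 CPM, so the sum says little of the other members. The pituitary list, which holds miR-7a-5p and miR-7b-5p too, summed to 32585 ± 6204 CPM, lowest in RCD 7 (23456) and highest in RCD 3 (40373). Nearly all of this sum is miR-7a-5p and miR-7b-5p, so it says little of the other members. It does not separate pituitary from hypothalamic cells.

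Glial, vascular and blood lists were lower. The astrocyte list (4 of 4 detected, led by miR-29a-3p and by miR-143-3p, which at 5554 ± 1747 CPM is also in the endothelial and mural list) summed to 30709 ± 2657 CPM and the endothelial and mural list (7 of 7) to 27328 ± 2904 CPM. The myeloid list (7 of 7, led by miR-21a-5p with 4337 ± 676 CPM and miR-146a-5p with 1234 ± 207 CPM) summed to 6251 ± 862 CPM. The oligodendrocyte list (5 of 6) summed to 1674 ± 294 CPM, led by miR-219a-2-3p with 540 ± 138 CPM and miR-338-5p with 538 ± 69.4 CPM. The erythroid list (6 of 6) summed to 981 ± 191 CPM, with miR-451a, the red cell miRNA, at 403 ± 70.6 CPM and miR-486b-5p at 220 ± 51.6 CPM.

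The Hox-linked, liver, muscle, and sensory and pineal lists had the lowest sums. The Hox-linked list, of miRNAs encoded among the Hox genes of the hindbrain and spinal cord, summed to 82.1 ± 14.12 CPM with 2 of 5 members detected, miR-10a-5p (46.2 ± 5.74 CPM) and miR-10b-5p (35.4 ± 11.7). The liver list had miR-122-5p at 28.1 ± 7.38 CPM. The muscle list summed to 213 ± 72.2 CPM, led by miR-1a-3p with 175 ± 54.1 CPM. The list of the sensory and pineal cluster of miR-183, miR-182 and miR-96 summed to 127 ± 60.6 CPM, from 58.3 in RCD 8 to 238 in RCD 4.

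The list for choroid plexus and ciliated cells had the widest range of all 13 lists, 4.45 times from lowest to highest. It summed to 7960 CPM in RCD 2 and 4791 in RCD 5, while the other 6 libraries lay between 1789 and 2605. Of its 11 members 8 were detected and 2 had 0 counts in all 8 libraries. RCD 5 and RCD 2 were also the 2 highest in the oligodendrocyte list (2206 and 1854 CPM, against 1254 to 1832) and in the myeloid list (7961 and 6486 CPM, against 4855 to 6316), by smaller margins. The part of choroid plexus tissue in the other values of these 2 libraries was not tested.

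Arm use was measured per hairpin as the log2 ratio of 5p to 3p counts, with 0.5 added to each. Precursors that share a mature miRNA cannot be separated and were joined. Of 801 hairpins with both arms listed, 237 had a mean of at least 100 counts over both arms, and 30 of these are such joined groups. A two-sided exact sign-flip permutation test over the 8 libraries, adjusted over the 237 by Benjamini-Hochberg, called 122 hairpins led by the 5p arm (51.5% of those tested) and 111 led by the 3p arm (46.8%). With 8 libraries this test cannot give a p below 0.00781, and a hairpin whose 8 ratios have the same sign reaches it. The leading arm was the same in all 8 libraries for 229 hairpins.

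In read counts, the arms differed by far more than the libraries did. The sign-flip test covers only how steady a ratio is over libraries. Whether library preparation captures different sequences equally was not tested. Ranks, shares and arm ratios in this report are therefore those of read counts. The median size of the log2 ratio was 5.55, with a 10th percentile of 1.02 and a 90th of 10.8, and 189 hairpins (79.7%) had a leading arm at least 4-fold above the other. The median SD of the ratio over libraries was 0.32. At 28 hairpins the leading arm was at least 1000-fold above the other. By counts, 5p arms held 65.7% ± 1.59 of the reads of these hairpins, from 64.3% to 68.3%.

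Among the most abundant hairpins, the 3p arm led in mir-128 and mir-29a and the 5p arm in the other 8 of the 10 largest. The 2 mir-128 hairpins lie in introns of R3hdm1 (GRCm38, chromosome 1, 128202361 to 128202430, plus strand) and Arpp21 (chromosome 9, 112118636 to 112118711, minus strand), both on the strand of the gene. Their shared miR-128-3p had 503383 to 792278 counts per library and their 5p arms together 48 to 95, a mean log2 ratio of -13.35 ± 0.32 (adjusted p = 0.00809, exact sign-flip test). let-7g (13.03 ± 0.43), mir-99a (13.56 ± 0.33) and mir-218 (12.86 ± 0.44) were about as one-sided towards 5p, and their other arms stood at 3.11 to 3.78 CPM, so these ratios rest on few counts of the lesser arm.

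The miR-9 hairpins were the exception among the abundant ones. They lie on chromosome 3 (88215598 to 88215686, plus strand, intron of Gm3764), chromosome 13 (83738814 to 83738885, plus strand, exon of C130071C03Rik) and chromosome 7 (79505264 to 79505353, plus strand, intron of Mir9-3hg), and share both mature arms. miR-9-5p had 439050 to 746165 counts and miR-9-3p 51114 to 99040. The log2 ratio was 3.04 ± 0.13, from 2.81 in RCD 4 to 3.21 in RCD 1, and miR-9-3p was the only lesser arm among the 20 most abundant miRNAs. As printed above, both arms have their own seed.

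At the other end, 4 hairpins passed the test in neither direction: mir-434, mir-127, mir-369 and mir-448. The first 3 lie in the imprinted cluster on chromosome 12, where a long maternally expressed transcript carries many miRNAs. mir-434 (chromosome 12, 109594506 to 109594599, plus strand) lies opposite an exon of Rtl1, the retrotransposon-derived gene that it is antisense to. Its 5p arm had 6540 CPM and its 3p arm 6110 CPM, and the log2 ratio was 0.10 ± 0.22 (adjusted p = 0.25), positive in 5 libraries and negative in 3. Both of its mature miRNAs, with the different seeds shown above, were thus among the abundant ones. mir-127 (109592846 to 109592915, also opposite Rtl1) had 751 and 852 CPM and a ratio of -0.16 ± 0.26 (adjusted p = 0.141). mir-369 (109743418 to 109743496, in an exon of Mirg) had 1076 and 946 CPM and a ratio of 0.21 ± 0.36 (adjusted p = 0.141).

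Of the 10 hairpins nearest to equal arms with at least 10 CPM in each (121 hairpins qualify), 7 lie in this cluster: besides those 3, mir-329, mir-136, mir-431 and mir-485. The other 3 are mir-140, mir-350 and mir-145a. The differences were small, and 5 of the 10 (mir-434, mir-127, mir-369, mir-350 and mir-431) had libraries on both sides of 0. The other 5 kept their leading arm in all 8 libraries: mir-329 (0.31 ± 0.12) and mir-140 (0.34 ± 0.11) were led by the 5p arm in 8 of 8 libraries, and mir-136 (-0.38 ± 0.14), mir-485 (-0.42 ± 0.12) and mir-145a (-0.49 ± 0.20) by the 3p arm in 8 of 8 (adjusted p = 0.00809 for each, exact sign-flip test).

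Over the whole cluster (45 hairpins with coordinates, from 109563692 to 109743795), 84 miRNAs of at least 1 CPM held 6.92% ± 0.5257 of counts. It had 41 tested hairpins, of which 14 were 5p-led (beside 51.5% of all hairpins tested), 24 were 3p-led (beside 46.8%) and 3 were neither. Their median absolute log2 ratio was 3.32, against 5.77 for the 196 tested hairpins elsewhere. Under 2-fold between arms were 9 of the 41 and 15 of the 196. The cluster was singled out after its values were seen, so these are descriptions and were not tested.

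**Figure D3:**
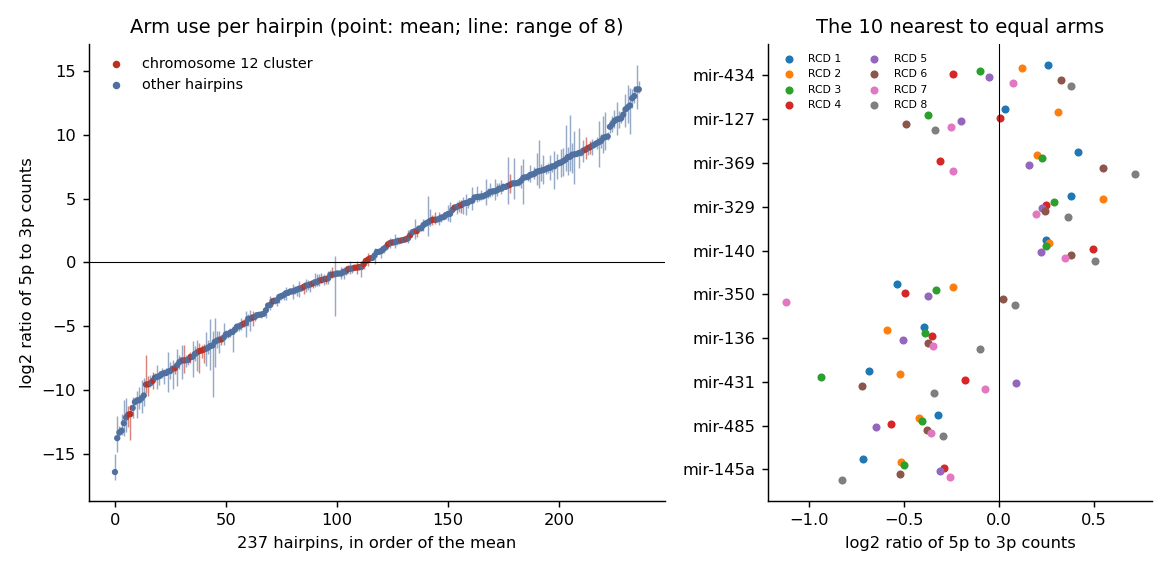
Left, the log2 ratio of 5p to 3p counts of the 237 tested hairpins in order of the mean, with the range over 8 libraries as a line and the imprinted cluster on chromosome 12 in red. Right, the 10 hairpins nearest to equal arms, 1 point per library, of which mir-434, mir-127, mir-369, mir-350 and mir-431 have points on both sides of 0.

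The leading arm began with U more often than the other arm. Of the 233 called hairpins, 167 have 1 mature miRNA per arm and a RefSeq sequence for both. The leading arm began with U in 82 (49.1%) and the other arm in 37 (22.2%). This held on either side: 45 against 20 of 87 5p-led hairpins, and 37 against 17 of 80 3p-led ones. The other arm began with C in 48 (28.7%) and with G in 30 (17.96%), against 29 (17.4%) and 17 (10.2%) for the leading arm, and with A in 52 (31.1%) against 39 (23.4%).

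The 4 RCD libraries of batch 2 gave the same leading arm at 232 of the 233 called hairpins, and the median absolute difference of the ratio from these 8 libraries was 0.28. The exception was mir-350, whose arms had 10.45 and 14.07 CPM here (ratio -0.37 ± 0.38, adjusted p = 0.0318) and whose call depended on which library was left out.

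Arm ratios were steady between libraries, with a median range of 0.62 on the log2 scale over the 121 hairpins with both arms at 10 CPM or more, and under 1 for 100 of them. The widest range among these 121 was that of mir-1298 (chromosome X, 147064905 to 147065002, plus strand, intron of the serotonin receptor gene Htr2c). Its ratio was 5.23 in RCD 2 and 4.29 in RCD 5, and 2.07 to 2.91 in the other 6 libraries. The 5p arm moved far more than the 3p arm: miR-1298-5p had 3855 CPM in RCD 2 and 2403 in RCD 5 against 360 to 602 elsewhere, while miR-1298-3p had 103 and 123 CPM against 59.2 to 88.5, so both arms were highest in these 2 libraries.

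mir-448, in another intron of Htr2c (147158210 to 147158321), had the larger change in the 3p arm. Its 5p arm was under 10 CPM on average, which leaves it out of the 121. It did not pass the test (adjusted p = 0.0791) and was named after its values were seen. miR-448-3p had 90.8 CPM in RCD 2 and 56.8 in RCD 5 against 7.23 to 12.7 elsewhere, and miR-448-5p had 4.72 and 9.90 against 5.80 to 11.9. The ratio was -4.23 in RCD 2 and -2.51 in RCD 5, and between -0.49 and 0.46 in the other 6. Htr2c is a serotonin receptor gene that is highly expressed in choroid plexus, and RCD 2 and RCD 5 are the libraries high in the choroid plexus list. The link between that list and the arm ratios was not tested.

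The next widest ranges among the 121 were those of mir-195a (1.55), mir-325 (1.32), mir-455 (1.30), mir-671 (1.29), mir-30b (1.25), mir-350 (1.21), mir-582 (1.18), mir-674 (1.12) and mir-143 (1.12). mir-195a was highest in RCD 7 at 3.40, where miR-195a-5p had 2903 counts and miR-195a-3p 275, against 487 to 824 and 110 to 155 in the other 7 libraries. mir-325 was highest in RCD 8 at 4.16, with the others at 2.84 to 3.28.

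Spread between libraries was small for most miRNAs. The 215 miRNAs of at least 100 CPM had a median CV of 11.8%, with 6.25% at the 10th and 22.3% at the 90th percentile, while counting error alone would give a median of 1.71%. The CV was under 20% for 185 of the 215 and above 50% for 4. The 10 steadiest were miR-325-5p (2.88%), miR-337-5p, miR-9-5p, miR-423-3p, miR-181d-5p, let-7d-3p, miR-328-3p, miR-872-5p, miR-329-5p and miR-99b-3p (5.01%). miR-325-5p lay between 180 and 196 CPM in all 8 libraries and miR-337-5p between 749 and 809. For miR-325-5p counting error alone would give 3.37%, more than its whole spread. miR-328-3p, at 12476 ± 541 CPM (4.34%), was the steadiest of the abundant ones after miR-9-5p.

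The largest CVs came from 1 or 2 libraries. miR-1298-5p (112.7%) stood at 3855 CPM in RCD 2 and 2403 in RCD 5 against 360 to 602 in the others. miR-34c-5p, a miRNA of ciliated cells (83.7%), stood at 1534 and 785 against 211 to 406. miR-204-5p, the main miRNA of the choroid plexus (66.4%), whose hairpin lies in an intron of Trpm3, stood at 6071 and 3800 against 1396 to 2316. miR-1264-3p (35.3%), also from Htr2c, stood at 398 and 309 against 144 to 216. In these 4 the same 2 libraries lay above all others, RCD 2 before RCD 5 each time.

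RCD 7 was set apart by other miRNAs. miR-195a-5p (71.1%) had 526 CPM there against 117 to 194, and miR-497a-5p, which comes from the same primary transcript and shares its seed AGCAGCA, had 119 against 35.9 to 69.1. miR-206-3p, a skeletal muscle miRNA, had 134 CPM against 4.03 to 9.86, while miR-1a-3p, the more abundant muscle miRNA, had 167 in RCD 7 and was highest in RCD 5 at 290. miR-194-5p (29.8%), a miRNA of liver and gut that the series' title names, had 599 CPM in RCD 7 and 274 to 338 in the other 7 libraries.

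Further miRNAs stood out in other libraries. miR-143-3p, of smooth muscle and pericytes, had 9762 CPM in RCD 5 against 4532 to 5618. The epithelial miRNAs miR-200a-3p (189 in RCD 3 and 170 in RCD 4, against 27.1 to 70.8) and miR-200b-3p (115 and 76.8, against 14.4 to 44.03) were high in RCD 3 and RCD 4. miR-135b-5p (29.64%) and miR-298-5p (27.1%) had no such gap, running from 148 to 383 and from 148 to 325 CPM. Counted over the 392 miRNAs of at least 10 CPM, those at least 2-fold above the median of the other 7 libraries numbered 10 in RCD 2, 9 in RCD 5, 5 in RCD 4, 3 each in RCD 3 and RCD 7, and 0 in RCD 1, RCD 6 and RCD 8.

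**Figure D4:**
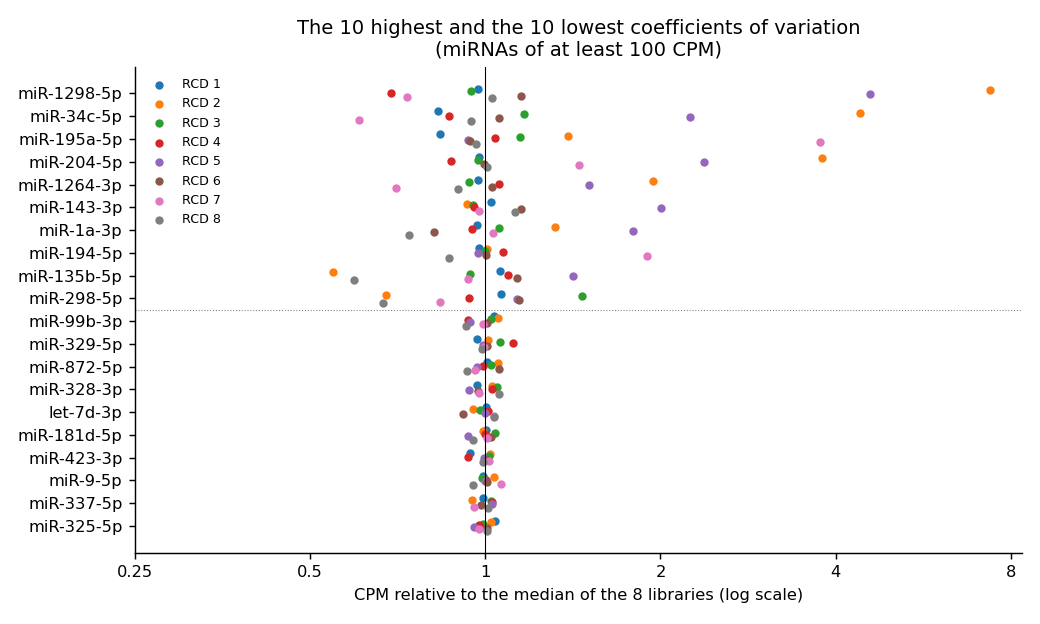
CPM of the 10 miRNAs with the highest (above the dotted line) and the 10 with the lowest coefficient of variation among miRNAs of at least 100 CPM, relative to the median of the 8 libraries (log axis), 1 point per library. RCD 2 and RCD 5 lie at the right for miR-1298-5p, miR-34c-5p, miR-204-5p and miR-1264-3p, and RCD 7 for miR-195a-5p and miR-194-5p, while the 10 steadiest stay near 1.

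tRFs came mostly from lysine and glutamate tRNAs, and most tRF counts were of fragments that begin at position 1 of a tRNA. Of 17051 tRFs listed, 7803 had a count in at least 1 of the 8 libraries and 912 in all of them. The 15 most abundant made up 50% of counts and the 379 most abundant 90%. Amino acids and anticodons are as the deposited table lists them. Its tRNA reference was not stated, and 1510 of its entries give a place on chromosome 1 beyond the end of mouse chromosome 1 and 421 one on chromosomes 20, 21 or 22, which the mouse lacks. tRFs with at least 1 such place, 1929 in all, held 30.35% of counts, so no tRF coordinates are given. Whether this reference matches mouse tRNAs was not tested. No tRF labelled mitochondrial had a count in these libraries. The shares below are therefore shares of the fragments in this list, under its labels. Fragments listed for 1 amino acid only held 99.2% of counts.

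Lysine tRNAs gave 38.6% ± 9.97 of tRF counts (mean ± SD of 8 libraries), with 19.8% in RCD 7, 32.2% to 46.01% in 6 libraries and 52.8% in RCD 5. Glutamate tRNAs gave 28.5% ± 7.14, from 18.2% in RCD 5 to 38.6% in RCD 1. Glycine (7.96% ± 2.02), leucine (7.38% ± 1.99) and alanine (3.15% ± 1.08) followed, and histidine gave 2.69% ± 0.841. Lysine ranked above glutamate in 7 of 8 libraries and below it in RCD 7. Within amino acids 1 anticodon led: LysCTT held 35.6% of tRF counts and LysTTT 2.98%, and GluCTC held 24.8% and GluTTC 3.49%, with GlyGCC at 5.14%.

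By fragment type, 5'-tRFs held 37.8% ± 12.0 of counts, i-tRFs 28.4% ± 6.48, 5'-half fragments 23.8% ± 6.93, 3'-tRFs 8.55% ± 2.59 and 3'-half fragments 1.45% ± 0.525. The 5'-tRFs ranged from 22.03% in RCD 7 to 59.3% in RCD 5, and 5'-half fragments from 13.7% in RCD 5 to 36.2% in RCD 1. The order of types therefore differed between libraries: 5'-half fragments led in RCD 1, i-tRFs in RCD 2 and RCD 7, and 5'-tRFs in the other 5. The leading 5' fragments of LysCTT and GluCTC are filed as 5'-half at 32 to 35 nt and as 5'-tRFs at 31 and 36 nt. The 2 types therefore divide fragments whose ends differ by few bases. Fragments beginning at position 1 of the tRNA held 60.3% ± 7.55 of counts.

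Fragment length had 2 main classes. Fragments of 29 to 36 nt, the size of a piece cut at the anticodon loop, held 47.5% ± 16.6 of counts, from 24.7% in RCD 5 to 73.6% in RCD 1. Fragments of 47 to 50 nt, where 50 nt is the longest length in the table, held 23.3% ± 14.5, from 6.17% in RCD 7 to 48.4% in RCD 5. Between them, 37 to 46 nt held 4.18% ± 0.720. The shortest, of 16 to 19 nt, held 16.6% ± 5.22. Most of the 47 to 50 nt class lay at the longest length itself. Fragments of exactly 50 nt held 20.4% ± 12.7 of counts and those of 49 nt 2.40% ± 1.65. Whether the RNAs behind the 50 nt fragments extend further cannot be told from these counts, so 50 nt may not be their true length.

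**Figure D5:**
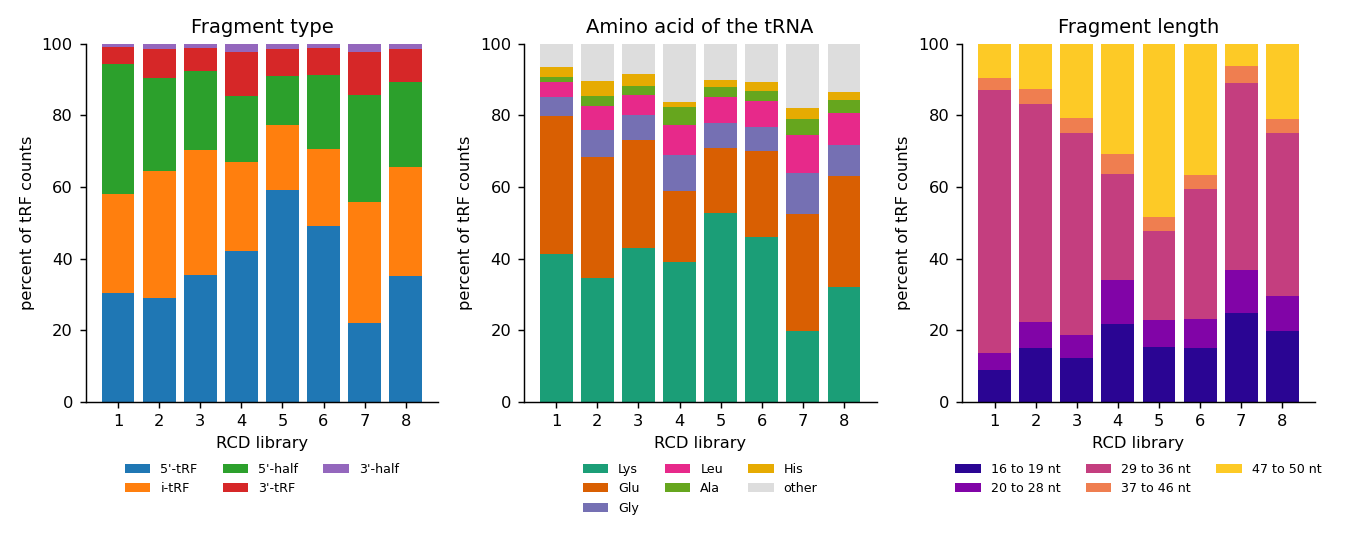
Percent of tRF counts in each of the 8 RCD libraries, stacked by fragment type, by amino acid of the tRNA and by fragment length. RCD 5 has the largest share of lysine, of 5'-tRFs and of 47 to 50 nt, RCD 7 the smallest of all 3, and RCD 1 the largest share of 29 to 36 nt.

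The most abundant tRF was tRF-50-PSQP4PW3FJIKE7UMKKSW, the 5' 50 nt of a LysCTT tRNA, with 15.4% ± 12.0 of tRF counts. It had 6662 counts in RCD 1, 4497 in RCD 2, 14155 in RCD 3, 10280 in RCD 4, 22796 in RCD 5, 22776 in RCD 6, 9 in RCD 7 and 4988 in RCD 8. As shares these are 5.88% to 36.5% in 7 libraries and 0.0174% in RCD 7 (Wilson 95% interval 0.00913% to 0.0330%, which covers counting error only). tRF-50-PSQP4PW3FJI0E7UM8KSW, the same stretch of another LysCTT tRNA that differs by G29A and C41T, counted from the 5' end, was also present in 7 libraries, with 504 to 1432 counts. In RCD 7 it had 0 of 51869 counts, which allows a share of up to 0.00578% by a limit of 3 counts, or 0.00741% by the upper Wilson bound.

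RCD 7 did not lack shorter LysCTT fragments. The 35 nt fragment that matches the leading 50 nt one, tRF-35-PSQP4PW3FJIKE7, had 237 counts in RCD 7 and 162 to 1726 in the others. That of the other LysCTT tRNA, tRF-35-PSQP4PW3FJI0E7, was more abundant, with 1399 counts in RCD 7 and 805 to 12230 in the others. The next counts sum all LysCTT tRNAs, so they do not separate these 2. LysCTT fragments of 30 to 36 nt starting at position 1 had 5828 counts in RCD 7 and 3051 to 23250 in the other libraries. Those of 43 to 50 nt had 10 counts in RCD 7 and 6131 to 27425 in the others. Nor did RCD 7 lack long fragments of other tRNAs: GlyGCC fragments of 43 to 50 nt starting at position 1 had 2115 counts there, the highest of the 8 libraries, against 1282 to 1987. Among fragments of 47 to 50 nt, lysine held 1.03% in RCD 7 and 75.2% to 90.8% in the others, and glycine 85.2% against 7.19% to 19.98%. In the series as a whole 6 of 44 libraries had under 0.1% of this 50 nt fragment, and the 4 RCD libraries of batch 2 had 3.69% to 30.8%.

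Without RCD 7 the lysine share was 41.3% and that of 5'-tRFs 40.02%. Without fragments of 47 to 50 nt in any library, lysine fell below glutamate, at 24.7% against 36.4% of the remaining counts. The order of the 2 leading amino acids thus depends on the long fragments.

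GluCTC fragments were mostly of 29 to 36 nt, a length class that gave 12.25% of tRF counts in RCD 5, a median of 24.56% and 34.33% in RCD 1, against a mean of 0.126% for those of 47 to 50 nt. Of GluCTC counts, 49.3% ± 5.16 were 5'-half fragments and 31.02% ± 2.23 5'-tRFs, while 3'-half fragments held 0.00924% and 3'-tRFs 0.00730%. LysCTT was like it in having almost no 3' side, with 0.0325% of its counts in 3'-tRFs, but its 5'-tRF share ran from 17.1% to 89.2%. Within LysCTT, tRF-35-PSQP4PW3FJI0E7 was the leading fragment cut at the anticodon, with 4.19% ± 2.95 of tRF counts, from 1.29% in RCD 5 to 10.8% in RCD 1.

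Fragments that start at position 3 had the next largest mean share by start, 8.34% ± 5.94, from 1.82% in RCD 4 and 1.94% in RCD 5, where other starts exceeded it, to 16.5% in RCD 3. Among fragments of 27 to 36 nt that start at positions 1 to 4, position 3 took 18.3%, 25.2% and 29.4% in RCD 1 to RCD 3 and 5.54% to 15.5% in RCD 4 to RCD 8, so these 3 libraries lay above the other 5. Position 2 took 4.67% ± 2.20 and position 4 2.00% ± 1.12. The table files such fragments as i-tRFs. All i-tRFs together, whatever their start, held 56.0% ± 7.87 of LysTTT counts and 19.7% ± 5.97 of GluCTC counts.

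Leucine, alanine and glycine showed other patterns. LeuTAG and LeuCAA fragments were nearly all internal, 98.7% ± 0.356 and 99.2% ± 0.342 of their counts, and fragments of 16 to 19 nt made up 2.25 of the 2.54% of tRF counts from LeuTAG. The leading one, tRF-17-I958M8N (positions 47 to 63), held 1.30% ± 0.431, from 0.717% in RCD 1 to 2.03% in RCD 8. 3'-tRFs were led by alanine (33.8% ± 2.76 of 3'-tRF counts) and cysteine (13.6% ± 1.22), and 86.4% ± 0.972 of 3'-tRF counts ended in CCA, the tail added to every mature tRNA, from 85.2% to 88.0%. tRF-18-8R6Q46D2, an alanine fragment that ends in it, held 1.43% ± 0.459. GlyGCC combined long 5' fragments, led by tRF-50-PNR8YP9LON4VN1EH6KK8 (2.50% ± 0.9499, from 1.17% to 3.92%), with 5'-half fragments at 16.4% ± 5.68 of its counts.

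tRFs varied more between libraries than miRNAs. At least 100 CPM, about 7.09 counts in an average library, was reached by 611 tRFs, whose median CV was 49.2% with a counting error of 23.2%. The 108 tRFs of at least 1000 CPM had a median CV of 41.2% with a counting error of 7.26%, several times the counting error. edgeR's biological coefficient of variation per feature had a median of 40.27% for tRFs and 14.07% for miRNAs of at least 100 CPM. Scaling also matters more for tRFs, whose TMM factors ran from 0.606 in RCD 1 to 1.54 in RCD 7, and with them the median CV of tRFs was 38.7%. The ratio of the highest to the lowest library then fell from 3.36 to 1.4 for tRF-50-PNR8YP9LON4VN1EH6KK8, from 3 to 1.34 for tRF-18-8R6Q46D2 and from 2.83 to 1.56 for tRF-17-I958M8N, and rose from 8.37 to 13 for tRF-35-PSQP4PW3FJI0E7.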

How the data were processed

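Hypothalamus RNA was extracted with a miRNeasy kit (RNA integrity number above 8.4) and 200 ng per sample went into NEBNext small RNA libraries sequenced on a NextSeq 500, per the labels' protocols. The authors deposited unnormalised read counts per mature miRNA and per tRF. The submitters' processing notes name FastQC; trimming, aligner, miRNA release and tRNA reference are not given in the sources used here. All columns matched a sample (0 others). CPM used the total of each table. Arm ratios were tested by two-sided exact sign-flip permutation (256 sign patterns) with Benjamini-Hochberg adjustment at 0.05, in Python 3.11.15 with NumPy 2.4.6. TMM, RLE and biological coefficients of variation came from edgeR 4.0.16 (R 4.3.3). The arm test and CV were tested on simulated data. Hairpins were placed with GENCODE vM21 (GRCm38, 1144 of 1234 precursors). The libraries, miRNA lists and tests were chosen with earlier results of these data known. Named were the 20 leading miRNAs, the 10 of highest and lowest CV, the 2 leading miRNAs of each list, the 10 largest, most balanced and most variable hairpins, the 10 largest seed families and the 15 leading tRFs, some of which are not reported here; others were named after their values were seen. Alternatives changed scaling, pseudocount, filters and libraries. Replicates are separate samples per the labels, and no test between groups was made.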

Additional observations from a re-analysis of the deposited data

Results flagged for a closer look

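Of 116 values examined, 11 had 1 library far from the other 7 by Dixon's test at the 95% level. Chance alone would set apart about 1 in 20 of values not chosen for their spread. The values examined include the miRNAs of highest CV and the hairpins of widest range, which were so chosen, and that rate does not hold for them (miR-34c-5p, miR-195a-5p, miR-143-3p, miR-194-5p and mir-325 below). It does not hold for miR-206-3p either. That miRNA was examined as a leading miRNA of the muscle list, by a mean that its value in RCD 7 raises. RCD 7 accounts for 7 of the 11.

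In RCD 7, miR-206-3p stood at 134 CPM against a next value of 9.86, miR-195a-5p at 526 CPM against 194 and miR-194-5p at 599 CPM against 338. Abundant miRNAs were high there by less: miR-26a-5p at 83398 CPM (next 74620), let-7f-5p at 43924 (next 39592), let-7g-5p at 32738 (next 26809) and miR-30d-5p at 20046 (next 16710). RCD 7 is also the library with 10 counts of long LysCTT fragments (43 to 50 nt), against at least 6131 in the others, and whether these departures are related was not tested.

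The other 4 values each came from a different library. miR-34c-5p stood at 1534 CPM in RCD 2 against 785 in RCD 5. miR-143-3p stood at 9762 CPM in RCD 5 against 5618. The log2 arm ratio of mir-325 was 4.16 in RCD 8 against 3.28. The LysCTT fragment tRF-35-PSQP4PW3FJI0E7 held 10.8% of tRF counts in RCD 1 against 4.93%.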

How the results depend on the processing

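Of 940 alternative values, 919 were scored as unchanged, and none reversed. Unchanged means the same direction and side of the threshold, or a value within the spread between libraries. For counts of features and for CVs it means a change of less than 1.5 times, which is a wide margin. The median CV of tRFs, 49.2%, was so scored at 38.7% with TMM scaling and at 67.8% as the SD of log2(CPM + 1). Levels, shares, counts and CVs are positive and could not reverse. The order of values was not scored, and lysine fell below glutamate without fragments of 47 to 50 nt. With a minimum of 10 CPM the miRNAs counted as detected fell from 643 to 392. With a minimum of 1000 counts, 144 hairpins were tested, of which 79 were led by the 5p and 62 by the 3p arm. Without fragments of 47 to 50 nt, lysine gave 24.7% of tRF counts, glutamate 36.4%, 5'-tRFs 19.5%, i-tRFs 36.5% and 3'-tRFs 11.4%. With fragments of 1 anticodon only, 3'-tRFs gave 4.90%. The median CV of miRNAs was 55.0% over every miRNA with a count, and that of tRFs 78.2% at a minimum of 10 CPM and 201% over every tRF with a count. Lower filters add features of few counts. mir-350 lost its call without RCD 1, 2, 3, 4, 5 or 7 (ratios -0.39 to -0.27). Leaving out 1 library at a time gave 122 to 123 5p-led and 108 to 112 3p-led hairpins and a median CV of tRFs of 44.7% to 50.8%. Without both RCD 2 and RCD 5, an alternative chosen after seeing the data, the median CV of miRNAs was 11.3%. No paired analysis was possible because no groups were compared. Depth limits the tRFs, where 100 CPM is about 7.09 counts, and the lesser arm of the most one-sided hairpins.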
